A study of Mus musculus with 48 samples.

Results

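Open chromatin was examined around 7 genes that mark alveolar and ciliated cells of the normal lung, in tumors of mice that develop small cell lung cancer. The genes were chosen by name, and each was given a fixed window on build mm9: Sftpc on chromosome 14 from 70850000 to 71000000, Sftpb on chromosome 6 from 72180000 to 72330000, Abca3 on chromosome 17 from 24420000 to 24600000, Lamp3 on chromosome 16 from 19580000 to 19760000, Etv5 on chromosome 16 from 22300000 to 22500000, Ager on chromosome 17 from 34680000 to 34800000 and Foxj1 on chromosome 11 from 116120000 to 116270000. The members are the merged peaks centred in these windows, 62 of 114043 in all. The Sftpc window held 23, the Etv5 and Foxj1 windows 15 each and the Abca3 window 9. The Sftpb, Ager and Lamp3 windows held no merged peak in the list used here, and only their summits are described.

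Alveolar type 2 cells make surfactant, the lipid and protein film that lowers surface tension in the air spaces. Sftpc and Sftpb encode its hydrophobic proteins, Abca3 encodes the transporter that loads lipid into lamellar bodies, and Lamp3 encodes a membrane protein of these organelles. Etv5 encodes an ETS transcription factor that helps to keep the type 2 cell state. Ager encodes a receptor that is abundant on alveolar type 1 cells, the thin cells of gas exchange, and Foxj1 encodes the transcription factor that drives the formation of motile cilia. Small cell lung cancer is a neuroendocrine tumor and is not known for any of these programs.

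The assay was ATAC-seq, in which a transposase cuts and tags accessible DNA. Every library came from tumors with Trp53-/-, Rb1-/- and p130-/- alleles and the R26mG reporter, after Cre was given by adenovirus. In the Ad-CMV-Cre model the viral promoter is active in many cell types, and in the Ad-CGRP-Cre model Cre is under the promoter of a neuroendocrine peptide. For Ad-CMV-Cre, 8 Nfib-amplified libraries (5 liver metastases, 1 lymph node metastasis and 2 lung tumors) were compared with 7 lung tumor libraries without the amplification. For Ad-CGRP-Cre, 7 liver metastasis libraries were compared with 11 lung tumor libraries, 1 of which was Nfib-amplified. A further 15 Ad-CMV-Cre libraries, marked low in enrichment, entered only a pool of summits. The labels give neither the ages of the mice nor a step that removed normal tissue, and some titles share a code and end in A or B, so libraries may share a tumor or an animal.

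The windows were searched for peaks whatever gene they belong to. By the order of protein-coding genes in RefSeq (GRCm38.p6), Sftpc lies between Bmp1 and Lgi3, Abca3 between Abca17 and Rnps1, Etv5 between Tra2b and Dgkg, Foxj1 between Exoc7 and Rnf157, Ager between Pbx2 and Rnf5, Sftpb between Atoh8 and Usp39, and Lamp3 between Olfr171 and B3gnt5. A change in a window is therefore a change near the named gene and was not assigned to it.

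Promoter sequence was matched by symbol for 5 of the 7 genes. The 250 bases before the annotated start are shown for 4 of them, because they show how unlike these promoters are in base composition. Capitals mark the letters CG, which read the same on both strands. The coordinates are those of RefSeq on GRCm38.p6, another build than that of the peaks, so no merged peak or summit was placed on them.
Etv5 (chr16:22439571-22439820, minus strand): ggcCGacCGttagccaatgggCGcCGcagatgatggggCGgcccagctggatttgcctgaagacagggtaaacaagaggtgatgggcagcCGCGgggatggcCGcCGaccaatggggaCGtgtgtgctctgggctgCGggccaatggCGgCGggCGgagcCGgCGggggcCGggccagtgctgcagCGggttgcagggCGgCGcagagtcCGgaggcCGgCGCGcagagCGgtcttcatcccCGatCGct
Abca3 (chr17:24351773-24352022, plus strand): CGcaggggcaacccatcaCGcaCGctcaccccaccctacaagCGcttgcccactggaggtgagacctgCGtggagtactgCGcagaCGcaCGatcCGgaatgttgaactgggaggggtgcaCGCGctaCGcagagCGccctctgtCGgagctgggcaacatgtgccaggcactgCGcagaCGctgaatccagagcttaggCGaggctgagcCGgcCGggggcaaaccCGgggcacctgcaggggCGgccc
Sftpb (chr6:72304360-72304609, plus strand): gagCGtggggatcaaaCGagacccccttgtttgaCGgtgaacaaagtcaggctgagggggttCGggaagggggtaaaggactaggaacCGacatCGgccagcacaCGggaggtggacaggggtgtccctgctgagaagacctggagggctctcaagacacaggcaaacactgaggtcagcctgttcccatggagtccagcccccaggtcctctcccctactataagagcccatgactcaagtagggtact
Lamp3 (chr16:19706366-19706615, minus strand): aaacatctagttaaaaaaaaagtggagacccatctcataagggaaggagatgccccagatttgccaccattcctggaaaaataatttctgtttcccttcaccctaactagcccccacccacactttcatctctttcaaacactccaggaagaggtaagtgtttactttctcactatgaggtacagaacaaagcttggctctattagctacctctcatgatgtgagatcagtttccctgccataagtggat
The Etv5 stretch holds 27 CG (the first of 2 Etv5 entries), and 8.56% of the 32851 promoter entries hold at least as many in the same length. The Abca3 stretch holds 21, which 16.4% of entries reach, and the Sftpb stretch 7, which 46.3% reach. The Lamp3 stretch holds 0, where the median entry holds 6. The Etv5 stretch also has 3 matches to CCAAT or its reverse complement ATTGG, a motif that 33.8% of entries hold at least once.

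Accessibility was available as the authors' fitted comparisons, with no value per library, so sequencing depth is unknown and the spread between libraries enters only through the SE. Calls rest on the authors' deposited table (DESeq2 columns) and an adjusted p below 0.05. The mean normalised count was averaged by the authors over libraries. It was the same in both comparisons, which share no library by the labels, so it is not particular to the libraries of either. It had a median of 32.2 over the members and 21.2 over all peaks. In the authors' deposited table of the CMV comparison the median log2 fold change over all peaks was 0.60, and in that of the CGRP comparison it was 0.01, so CMV values are also given relative to their median. In bulk tissue, fewer cells of a type and less accessible DNA per cell cannot be told apart.

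**Figure D1:**
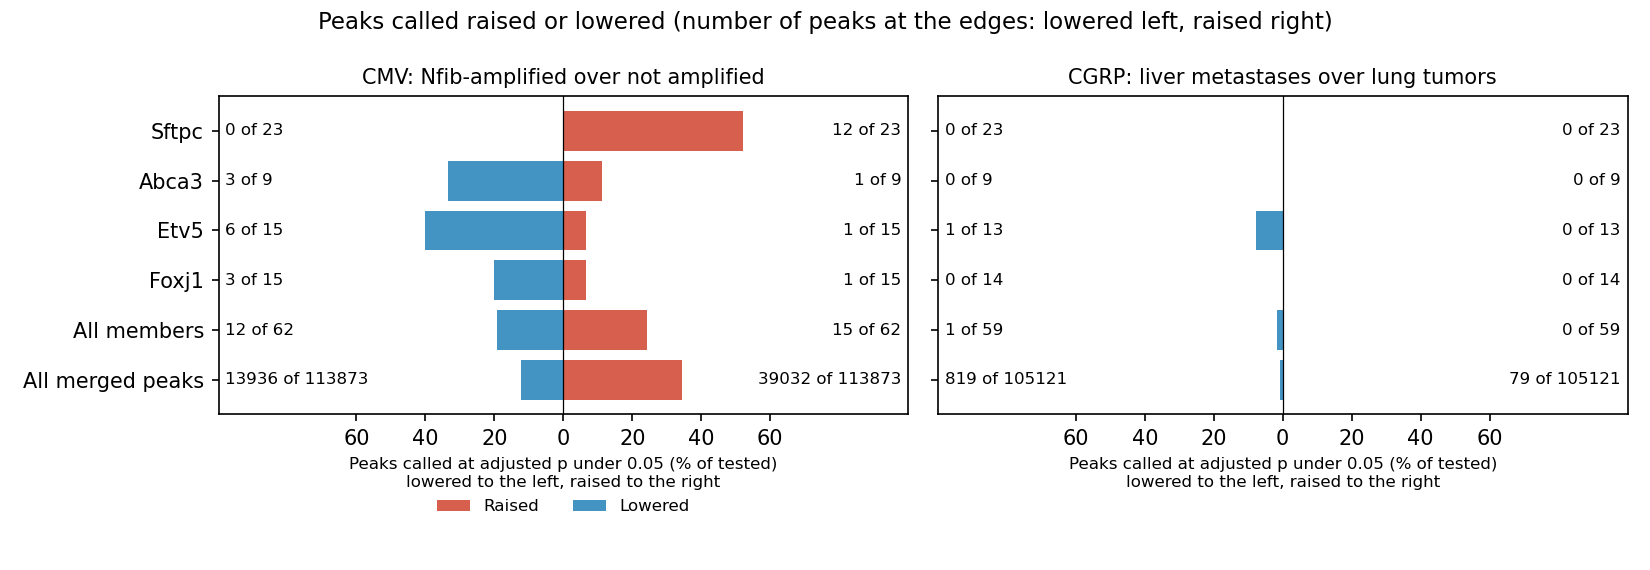
Share of tested merged peaks called raised (to the right) or lowered (to the left) at an adjusted p under 0.05 in each window, over all members and over all merged peaks. Numbers at the edges give the peaks called and tested, such as 12 raised of 23 in the Sftpc window of the CMV comparison and 1 lowered of 13 in the Etv5 window of the CGRP comparison.

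The CGRP comparison sets tumors growing in the liver against tumors growing in the lung, and asks whether lung cell loci were less open outside the lung. Near these genes 1 peak was lowered and 0 were raised, in the Etv5 window. Per the authors' deposited table, 1 of 59 members with an adjusted p was lowered (1.69%), where 0.779% of all tested peaks were, and 0.0752% of all were raised. At an unadjusted p under 0.05 in the same authors' deposited table (DESeq2 columns), 3 of 62 members were lower in liver metastases and 7 higher, where 6.25% and 3.37% of all peaks were. The median log2 fold change in the authors' deposited table was 0.12 over the members (quartiles -0.14 and 0.32), and 40 of 62 values were above 0. Over all peaks the median was 0.01, and 58312 of 114043 values were above 0.

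At Sftpc, a classic marker gene of type 2 cells, no peak was called in either direction. The 23 values in the authors' deposited table ran from -1.28 to 0.81 with a median of 0.06, and 14 were above 0. The strongest peak of the window, on chromosome 14 from 70977279 to 70977779 with a mean count of 331.8, was at 0.16 on the log2 scale (adjusted p = 0.670, SE 0.11) in the authors' deposited table. The most negative peak, from 70931174 to 70931674, had -1.28 (adjusted p = 0.217, SE 0.47) there, in the authors' deposited table. The peak from 70999321 to 70999821 had the lowest adjusted p of the window and was higher in liver metastases, at 0.41 (adjusted p = 0.0810, SE 0.13) in the authors' deposited table, without passing the threshold.

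The Abca3 window had 7 of 9 values above 0 and a median of 0.14 in the authors' deposited table. Its strongest peak, on chromosome 17 from 24563331 to 24563831 with a mean count of 155, had 0.02 (adjusted p = 0.982, SE 0.15) in the authors' deposited table. The window's extremes were weak peaks, and neither was called. A mean count of 12.7 went with -0.996 (SE 0.66) from 24466133 to 24466633, and one of 8.05 with 1.05 (SE 0.52) from 24574016 to 24574516, both in the authors' deposited table.

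The lowered peak of the Etv5 window lay on chromosome 16 from 22389107 to 22389607, 50.5 kb from the strongest peak of the window. Its log2 fold change in the authors' deposited table was -1.71 (adjusted p = 0.0133, SE 0.42), a 3.27-fold difference with a 95% Wald interval from -2.54 to -0.88, and its mean count was 47.2. The strongest peak of the window, from 22439621 to 22440121 with a mean count of 461.7, had -0.12 (adjusted p = 0.799, SE 0.11) in the authors' deposited table. Over all 15 Etv5 peaks the median in the authors' deposited table was 0.02. The call at 22389107 was lost under the stricter threshold of 0.01.

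Around Foxj1, the ciliated cell regulator, 11 of 15 values were above 0 and the median was 0.15 in the authors' deposited table. The lowest value was -0.14. The most positive was 1.93 (adjusted p = 0.0669, SE 0.57), at the peak on chromosome 11 from 116220693 to 116221193 with a mean count of 12.9, in the authors' deposited table. The strongest Foxj1 peak, from 116196493 to 116196993 with a mean count of 83.2, had 0.37 (adjusted p = 0.438, SE 0.18) in the authors' deposited table.

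**Figure D2:**
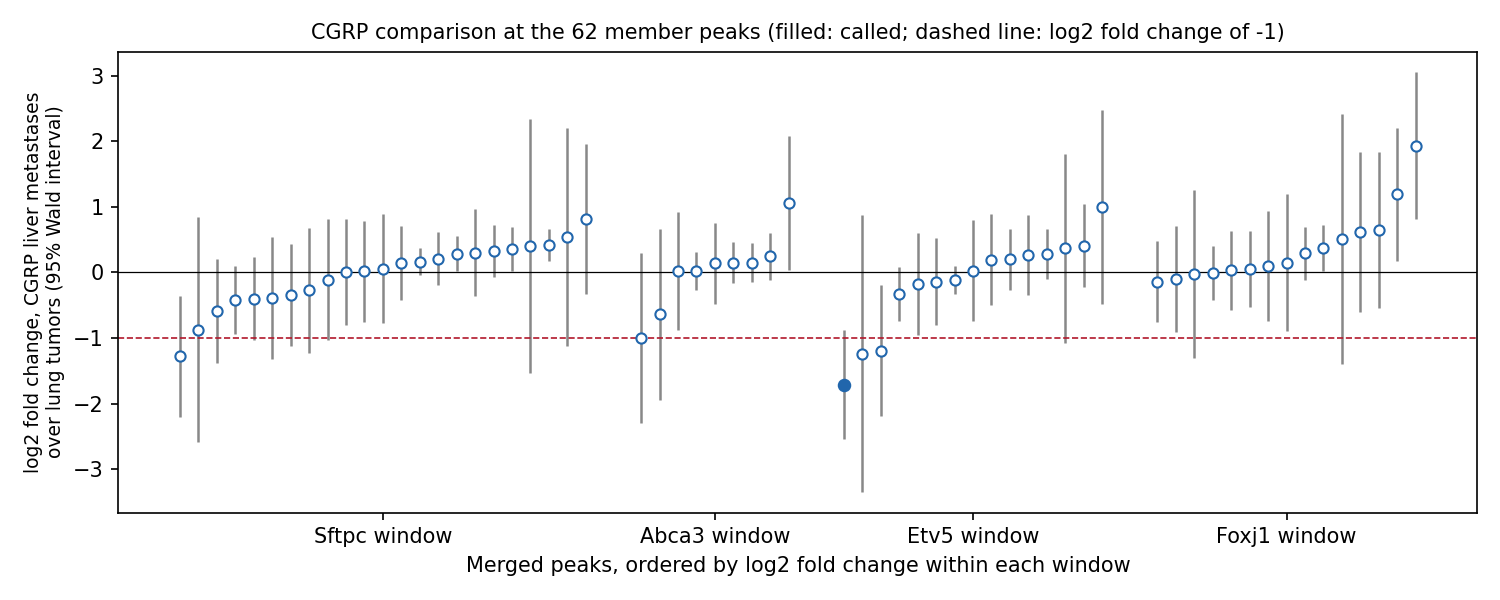
Log2 fold change of CGRP liver metastases over lung tumors with its 95% Wald interval at each of the 62 members, ordered by value within each window. The filled point is the 1 called peak, in the Etv5 window, and 44 intervals stay above the dashed line at -1.

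How large a loss these values leave room for was read from the intervals. For 44 of the 62 members the 95% Wald interval did not reach a log2 fold change of -1, a halving of accessibility, where 52.5% of all peaks had such an interval. These were 13 of 23 peaks at Sftpc, 7 of 9 at Abca3, 11 of 15 at Etv5 and 13 of 15 at Foxj1. All 8 members with a mean count of at least 100 were among them, and their values ran from -0.12 to 0.41 in the authors' deposited table. Of all 11491 tested peaks that strong, 10434 had such an interval. Such intervals were more common at stronger peaks, and the members had the higher median count, 32.2 against 21.2 over all peaks. Of the 20 members with a mean count under 20, 10 had an interval that reached -1, as did 34580 of all 54345 tested peaks that weak. For 9 of these 10 members the interval also held 0, so a halving could not be told from no change. At the other, the Etv5 peak from 22309383, it ran from -2.20 to -0.20, without a call after adjustment. Preparation batches differed between the CGRP groups: all 7 liver metastases and 7 lung tumors were prepared in batch 2, and the other 4 lung tumors in batch 3. Within-batch values could not be computed without values per library.

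In the CMV comparison, near Sftpc 12 of 23 peaks were raised in Nfib-amplified libraries and none lowered, while near Abca3, Etv5 and Foxj1 3 of 39 were raised and 12 lowered. Per the authors' deposited table, 15 of 62 members were raised (24.2%), where 34.3% of all peaks were, and 12 were lowered (19.4%), where 12.2% of all peaks were. The median log2 fold change in the authors' deposited table was 0.25 over the members and 0.60 over all peaks. Relative to the median of all peaks, 9 members were higher, all in the Sftpc window, where 19.9% of all peaks were. On that scale 27 members were lower, 4 of them in the Sftpc window, where 25.5% of all peaks were. In the second deposited test, whose column name was read as a null of 0.5 on the log2 scale in either direction, the authors' deposited table gave 9 raised and 4 lowered members, where 19% and 4.64% of all peaks were called. Tissue moved with amplification here: 6 of the 8 Nfib-amplified libraries were metastases and all 7 others were lung tumors, so the effects of amplification and of growth outside the lung cannot be told apart. Both groups were prepared in the same batches, 2 and 6 Nfib-amplified libraries and 2 and 5 others in batches 1 and 3.

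The raised Sftpc peaks were spread over the window. Their log2 fold changes ran from 1.08 to 3.29 with a median of 2.10 in the authors' deposited table, and their mean counts from 10.1 to 63.8. The largest value, 3.29 (adjusted p = 0.000709, SE 0.86), was at the peak from 70972508 to 70973008 in the authors' deposited table, 4.77 kb from the strongest peak. It was a weak peak, with a mean count of 14.5. The lowest adjusted p was from 70940588 to 70941088, with 1.91 (adjusted p = 9.59e-08, SE 0.32) in the authors' deposited table. A run of 17.3 kb from 70923785 to 70941088, singled out after its values were seen, held 6 peaks of which 5 were raised. The strongest peak was not called, at -0.16 (adjusted p = 0.303, SE 0.13) in the authors' deposited table. Nor was the next strongest called, from 70999321, at 0.21 (adjusted p = 0.265, SE 0.15) in the authors' deposited table. Centred on the median of all peaks, both of these were lower in Nfib-amplified libraries.

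The 9 Abca3 peaks had a median of -0.56 in the authors' deposited table. Lowered peaks lay from 24488692 (-0.56, adjusted p = 0.0107, SE 0.19), from 24530443 (-1.34, adjusted p = 0.0243, SE 0.52) and from 24592054 (-0.58, adjusted p = 0.00636, SE 0.19) in the authors' deposited table. In the authors' deposited table the strongest peak had -0.37 (adjusted p = 0.0724, SE 0.18), short of the threshold. Centred, it was lower at -0.98 (adjusted p = 7.37e-07, Wald test over all peaks), as were 7 of the 9 Abca3 peaks in all. Of all peaks, 25.5% were lower after centring. The raised peak, from 24466133, had 1.84 (adjusted p = 0.0231, SE 0.70) in the authors' deposited table. After centring it was no longer called.

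Near Etv5, 6 peaks were lowered and 1 raised. The strongest peak was among the lowered ones with a small change, -0.34 (adjusted p = 0.0197, SE 0.13) in the authors' deposited table. The second strongest, from 22470036 with a mean count of 111, had -1.25 (adjusted p = 0.000102, SE 0.28) in the authors' deposited table. The largest loss was at the edge of the window, from 22309383, with -2.48 (adjusted p = 0.000262, SE 0.60) in the authors' deposited table, at a mean count of 14.6. The raised peak, from 22341288, had 2.63 (adjusted p = 0.0219, SE 1.00) in the authors' deposited table, at a mean count of 3.796. The peak lowered in CGRP liver metastases was also lowered here, at -1.42 (adjusted p = 0.0107, SE 0.49) in the authors' deposited table. It was the 1 member of 59 tested in both comparisons that was lowered in both, where 0.364% of all peaks were. The median of the window was -0.34, and it was 0.46 when the window was narrowed by 25% at each end, which kept 6 peaks. Centred, 8 of the 15 Etv5 peaks were lower and 0 higher, where 25.5% and 19.9% of all peaks were.

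At Foxj1 the losses in the authors' deposited table were -2.93 (adjusted p = 0.00465, SE 0.91) from 116121575, -2.62 (adjusted p = 6.42e-05, SE 0.58) from 116200099 and -0.74 (adjusted p = 0.0113, SE 0.26) from 116167801. The first of these had a mean count of 5.43 and the second of 15.4, so the largest losses were at weak peaks. The strongest Foxj1 peak was not called, with -0.27 (adjusted p = 0.291, SE 0.21) in the authors' deposited table. Centred, it was lower at -0.88 (adjusted p = 0.000252, Wald test over all peaks), as were 8 of the 15 Foxj1 peaks in all. Of all peaks 25.5% were lower after centring too, and of those with a mean count from 50 to 100, 6269 of 14949 tested were. The raised peak, from 116220693, had 1.74 (adjusted p = 0.0133, SE 0.61) in the authors' deposited table. After centring it was no longer called. It is also the Foxj1 peak with the highest CGRP value.

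Members with a mean count of at least 100 were 4 lowered and 0 raised of 8 in the CMV comparison, with a median of -0.38 in the authors' deposited table. Of all peaks that strong, 23.9% were lowered and 25.4% raised, with a median of -0.02. These 8 peaks were 4 at Abca3, 2 at Etv5 and 2 at Sftpc, and the 4 lowered ones were 2 at Abca3 and 2 at Etv5. Centred, all 8 were lower, as were 7039 of the 11491 tested peaks of that strength, whose centred median was -0.62. Over all peaks with a mean count under 20 the centred median was 0.45, so centred values were lower at stronger peaks in general.

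**Figure D3:**
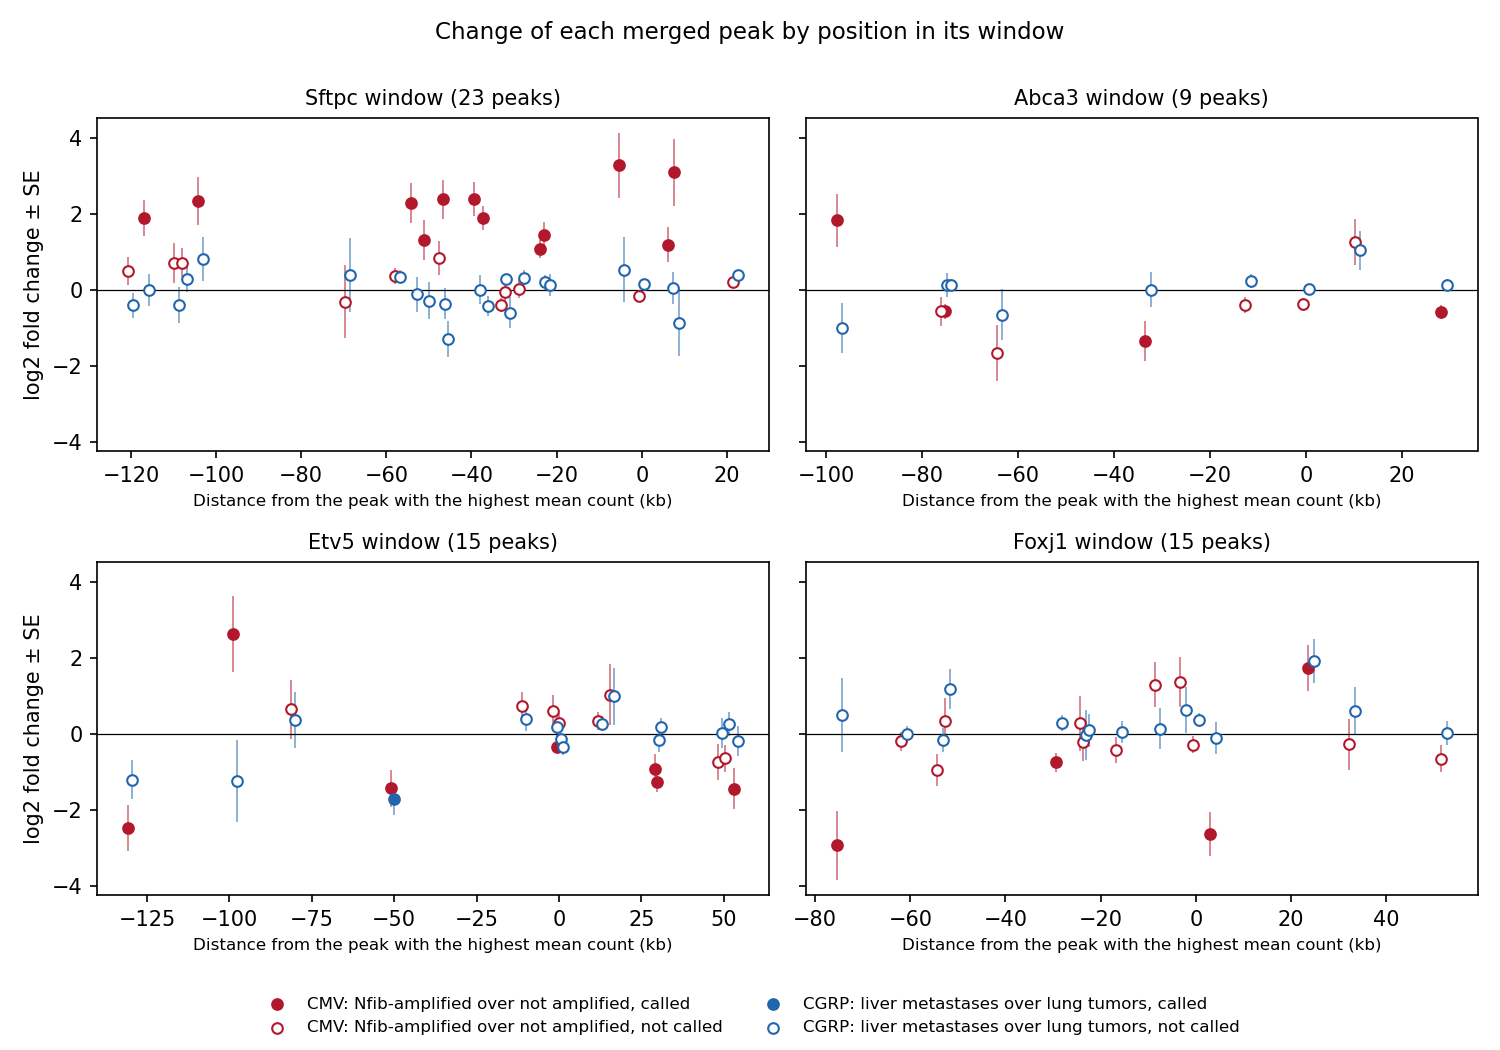
Log2 fold change with its SE at each member by distance in kb from the strongest peak of its window (highest mean count), for the CMV comparison (red) and the CGRP comparison (blue); filled points were called. In the Sftpc window 12 red points are filled above 0 and no blue point is filled.

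The change of each member in the CMV comparison was set against its change in the CGRP comparison by a two-sided z test with Benjamini-Hochberg adjustment over all peaks. The comparisons share no library by the labels. The mean count of each peak was the same in both, so they may rest on a shared scaling or a shared fit. The test takes both estimates as independent, which could not be checked. Of 62 members, 17 differed (27.4%), where 23.4% of all peaks did. The CMV change was the higher one at 10 members (17.8% of all peaks) and the CGRP change at 7 (5.62% of all peaks). Sftpc held 8 of the 10, and 1 of the 7.

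The smallest p was at the Sftpc peak from 70940588, where the CMV minus CGRP difference was 2.33 (z test, adjusted p = 4.09e-06, SE 0.41). The Sftpc peaks from 70931174 and from 70938570 followed, with differences of 3.67 (z test, adjusted p = 1.75e-05, SE 0.70) and 2.40 (z test, adjusted p = 0.00118, SE 0.59). Next came the Etv5 peak from 22470036 at -1.45 (z test, adjusted p = 0.00175, SE 0.37) and the Foxj1 peak from 116200099 at -2.53 (z test, adjusted p = 0.00458, SE 0.71). In each of these the CMV value was called and the CGRP value was not. At the 12 raised Sftpc peaks the CGRP values in the authors' deposited table ran from -1.28 to 0.81 with a median of 0.01, and 7 were above 0. At the Etv5 peak from 22389107, lowered in both comparisons, the difference was 0.29 with a 95% interval from -0.98 to 1.56, which leaves room for unequal losses. Centred on the median of all peaks, 26 members differed, where 25% of all peaks did. The CMV change was then the higher one at 5 members, all at Sftpc (9.13% of all peaks), and the CGRP change at 21 (15.8% of all peaks), 4 of them at Sftpc.

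The peaks beside each window were described in the same way, over a stretch of the window's length on either side. At Sftpc, 12 of 23 window peaks were raised and 0 lowered with a median of 1.08, against 4 and 2 of 18 tested flank peaks with a median of 0.34, in the authors' deposited table. At Abca3, 3 of 9 window peaks were lowered, against 14 of 35 flank peaks (40.0%) in the authors' deposited table. At Etv5 6 of 15 window peaks were lowered, against 10 of 32 flank peaks (31.2%), and at Foxj1 3 of 15, against 12 of 33 (36.4%). Raised flank peaks numbered 1, 5 and 3 at Abca3, Etv5 and Foxj1. Centred, 20 of 35 flank peaks were lower at Abca3, 16 of 32 at Etv5, 19 of 33 at Foxj1 and 5 of 18 at Sftpc. In the CGRP comparison 72 of the 119 flank peaks had values above 0, with a median of 0.08 in the authors' deposited table. By window these were 12 of 19 at Sftpc, 23 of 35 at Abca3, 14 of 32 at Etv5 and 23 of 33 at Foxj1. Whether windows and flanks differed was not tested.

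Summits had been called on 3 pools of libraries: 19 Ad-CMV-Cre libraries, 14 Ad-CGRP-Cre libraries and 15 of both. A CMV-pool summit lay within 250 bp of the centre of 51 of the 62 members (82.3%), where it did for 88.6% of all merged peaks. The CGRP pool had one at 54 members (87.1%), where 75.04% of all peaks had one, and 45 members (72.6%) held a summit of all 3 pools, where 64.8% of all peaks did. At Sftpc, a CGRP-pool summit was held by 9 of the 12 peaks raised in the CMV comparison and by 11 of the 11 others. The 3 raised peaks without one were weak, with mean counts of 10.1, 14.5 and 17.8. Of all peaks with a mean count under 20, 56.9% had a CGRP-pool summit. All 9 Abca3 peaks had a CGRP-pool summit and 7 a CMV-pool summit. The CMV pool includes the 15 libraries low in enrichment and was prepared as a batch of its own, so vector and batch cannot be told apart between the pools.

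**Figure D4:**
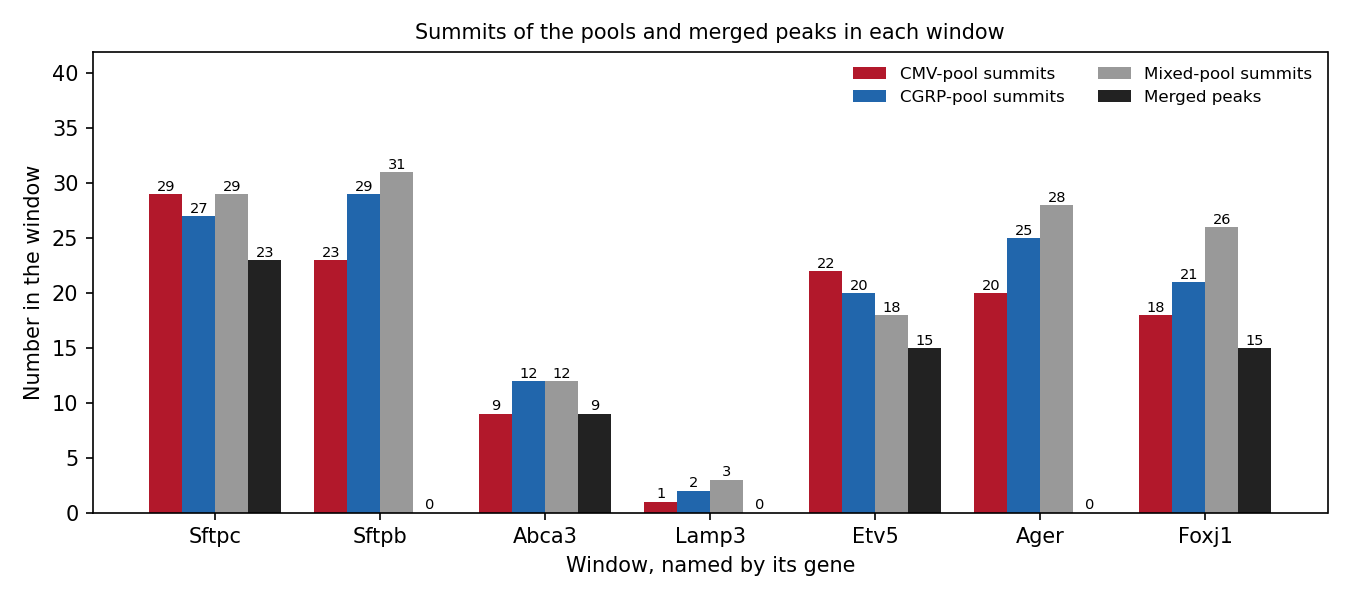
Number of summits of the CMV, CGRP and mixed pools and of merged peaks in each window. The Sftpb and Ager windows held 23 and 20 CMV-pool summits but 0 merged peaks, and the Lamp3 window held 1, 2 and 3 summits of the CMV, CGRP and mixed pools.

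Where the merged list had no peak, the summit lists still described the loci. The Sftpb window held 23 summits of the CMV pool, 29 of the CGRP pool and 31 of the mixed pool. The strongest of each pool lay close together on chromosome 6, at 72312487, 72312493 and 72312488. They scored at least as high as 98.9%, 99.1% and 99.1% of the pool's summits by the authors' score. The next strongest summits of the window, at 72305336, 72305362 and 72305357, were also close to each other. None of the window's summits was assigned to Sftpb, and their positions are not on the build of the promoter coordinates above. Of the 23 CMV-pool summits, 20 had a CGRP-pool summit within 250 bp.

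The Ager window was alike, with 20, 25 and 28 summits of the CMV, CGRP and mixed pools. Its strongest summits were at 34740777, 34740794 and 34740757 on chromosome 17 and scored at least as high as 97.9%, 98.5% and 98.2% of their pools. In all, 19 of the 20 CMV-pool summits had a CGRP-pool summit within 250 bp. The gene-dense surroundings of Ager mean that these summits were not assigned to it.

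The Lamp3 window held the fewest summits of the 7, with 1, 2 and 3 in 180 kb. The strongest scored at least as high as 54.8%, 31.2% and 40.3% of the CMV, CGRP and mixed lists, and none was shared by the CMV and CGRP pools at 250 bp. In the Sftpc window, which is shorter, the pools had 29, 27 and 29 summits. How accessibility near Sftpb, Ager and Lamp3 compared between metastases and lung tumors, or with Nfib amplification, was not analysed here. Both comparisons used here hold the same peaks as the merged list, so they give no value there. Whether the authors' comparisons covered these stretches in a fuller form is not known.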

How the data were processed

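ATAC-seq libraries were grouped by the labels, and the members, windows and lists were chosen with earlier results of these data known. The submitters' processing notes list mm9, Bowtie2, MACS2 and DESeq2, with no role or version. Read filters and any Tn5 offset: not given in the sources used here.

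The deposited summit lists were called on merged libraries, per the labels; the authors' score there was read as −log10 q because its smallest value is 1.30. The authors' merged peaks are 501 bp long. In the deposited tables, the mean count is a signal averaged by the authors after library scaling, the log2 fold changes and SEs are the authors', the Wald score is the authors' test statistic, and the raw and adjusted p-values come from the authors too, with the column names of DESeq2, per the file headers. Directions (Nfib-amplified over not amplified, liver over lung) rest on the names of the tables. The description of 1 of the 7 not amplified libraries does not name the comparison table. The model's covariates were not stated in any source used. The tables hold 0 columns of values per library, so depth is unknown and no count model could be fitted. An adjusted p was missing for 3 members in the CGRP comparison.

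Computed here were the members (peak centre inside a window), their counts and medians, Wald intervals (1.96 SE), centred values with p recomputed from the SE, and a z test of the difference between comparisons. The z test was checked on simulated data with large planted differences and independent errors. Independence of the estimates was therefore not checked. Named peaks were those called in the CGRP comparison, the largest raised and lowered peak and the strongest peak of each window, and the 5 differences with the smallest p; others are named to show extremes and were chosen after their values were seen. The tools were matplotlib 3.10.9, scipy 1.17.1, pandas 2.3.3, numpy 2.4.6 and Python 3.11.15. Alternatives covered thresholds, a mean count minimum of 20, centring, window limits, windows left out, the second deposited test, readjusted p-values and the summit rule.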

Additional observations from a re-analysis of the deposited data

Results flagged for a closer look

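In 3 windows summits were called and the merged list used here has no peak. Both comparisons used here hold the same peaks as this list, so they give no value for these stretches. Whether the authors' comparisons covered them in a fuller form is not known. The Sftpb window held 83 summits over the 3 pools, the Ager window 73 and the Lamp3 window 6. Summits of different pools can mark the same site, so these totals count calls and not sites. The nearest merged peaks spanned 10.2 Mb around Sftpb, 4.15 Mb around Ager and 713 kb around Lamp3.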

How the results depend on the processing

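No paired analysis was possible because the deposited tables hold no values per library; for the same reason no library could be left out. The main counts were 15 raised and 12 lowered CMV members, 0 raised and 1 lowered CGRP member, and 17 members that differed between the comparisons. At an adjusted p under 0.01, 5 CMV members were lowered, 0 CGRP members were lowered and 6 differed; under 0.1, 2 CGRP members were raised. A mean count of at least 20 left 9 raised CMV members. Centring gave 9 raised and 27 lowered CMV members and 26 that differed, with CMV medians of 0.47 (Sftpc), -1.16 (Abca3), -0.94 (Etv5) and -0.87 (Foxj1). Narrower windows gave 9 raised, 6 lowered and 11 differing members, since fewer peaks were counted. The CMV median at Etv5 was then 0.46. Narrowing left out the lowered Etv5 peaks from 22309383, 22469459, 22470036 and 22493368 and the raised one from 22341288. The lowered ones from 22389107 and 22439621 stayed. Without the Sftpc window 3 CMV members were raised and 8 differed, and without the Etv5 window 6 CMV members and 0 CGRP members were lowered. The deposited test against 0.5 gave 9 raised and 4 lowered CMV members and 0 lowered CGRP members. The other 80 values under these alternatives, among them those of the summit rules, any overlap and readjusted p-values, stayed within 1.5 times the main count or within 1 median SE of the main median. No peak named by the rule changed sign; over these alternatives 15 of their CMV values and 2 of their CGRP values lost a call, and 4 and 1 gained one.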

Other observations

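Beside the windows, 1 of 112 peaks with an adjusted p was lowered in CGRP liver metastases and 0 were raised. It lay in the flank of the Abca3 window, on chromosome 17 from 24345875 to 24346375, with -1.32 (adjusted p = 0.0314, SE 0.36) in the authors' deposited table (DESeq2 columns). In the CMV comparison this site was at 0.09 (adjusted p = 0.870, SE 0.39) in the authors' deposited table, and the difference between the comparisons was 1.41 (SE 0.53, z test adjusted over all peaks, adjusted p = 0.0380).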
